A study of Mus musculus with 8 samples.

Results

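Most of the genes described here encode axonemal dyneins, other structural parts of the motile cilium or factors that assemble dynein arms. All of these genes are called cilium genes below, including 6 classed as known for other roles and the non-coding Dnah2os. They were taken from the deposited table by name: every gene whose symbol starts with Dnah, Dnaic, Dnai, Dnal, Dnaaf, Rsph, Tekt, Cfap, Drc, Spag, Spef or Ropn1 followed by a digit, together with Ccdc39, Ccdc40, Ccdc114, Hydin, Armc4, Lrrc6 and Zmynd10. This gave 82 of the 19150 genes in the table. Of these, 81 passed the filter on low counts. The exception was Spag6, with 51 reads over all 8 libraries, which gets no test. The rule used names only, but it was written with earlier results of these data known.

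Whole lungs of mouse embryos of C57BL background, with the oesophagus, the trachea and the bronchi taken away, were used for RNA sequencing at E17.5. The mutant embryos expressed the Tgf-b receptor 1, the kinase receptor of TGF-β signalling, in a constitutive active form in the lung epithelium, and the controls did not. Each sex had 2 control and 2 mutant libraries, which makes 4 groups of the same strain background and age. The labels give neither the promoter or Cre line behind the active receptor nor whether the 2 libraries of a group came from separate embryos, so the p-values below measure the spread between these libraries, which may be partly technical. Since the large airways were removed, the ciliated cells measured should be mainly those of the airways that stayed in the lung. How complete the removal was in each library was not tested.

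A motile cilium is built on an axoneme, a ring of microtubule doublets around a central pair. Outer and inner dynein arms on the doublets are the motors, radial spokes and the central pair regulate them, the nexin-dynein regulatory complex links neighbouring doublets, and a set of cytoplasmic factors assembles the arms before they enter the cilium. In the lung these genes mark the multiciliated cells of the airway lining, which clear mucus, and their expression in those cells depends on the transcription factor Foxj1 and on RFX factors.

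In mutant males the cilium genes were lower than in control males, and in mutant females no such shift was measured. The median log2 difference between mutants and controls was -0.83 in males over the 81 genes tested, against 0.01 over all 18164 genes tested, and 0.04 in females. A total of 15 cilium genes fell in males by edgeR's quasi-likelihood test with Benjamini-Hochberg adjusted p under 0.05, and none of the 81 rose. These 15 were 6 dynein heavy chains (Dnah2, Dnah3, Dnah5, Dnah9, Dnah10 and Dnah12), the intermediate chain Dnaic2, the inner arm gene Cfap44, the radial spoke genes Rsph1 and Rsph4a, the regulatory complex and ruler genes Drc1 and Ccdc40, the central pair genes Spag17 and Cfap54, and Cfap45 from inside the doublets. That is 18.5% of the cilium genes tested, where 1.04% of all genes tested fell and 0.259% rose. In a fit that also held the replicate number as a block, 48 cilium genes fell (59.3%, against 9.43% of all genes) and 1 rose (7.3% of all genes rose). The labels do not say what that number marks, so blocked values here and below are an alternative and not the main result.

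The falls in males rest on each of the 4 male libraries. Without control male 1, without mutant male 1 and without mutant male 2 the same test called 0 cilium genes, and without control male 2 it called 1, Rsph4a. The median log2 difference of the 15 genes was -1.12 with all libraries and ran from -1.16 to -1.07 when 1 library was left out. The 15 were picked by their values in these same libraries, so a steady median was partly set by that choice.

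Promoter sequences are shown for 4 genes that fell in males, since their windows hold the more frequent of the 2 motifs searched for. Windows of 300 bases, from 250 before to 50 after the transcription start, came from RefSeq on GRCm38.p6, and 76 windows matched 68 of the 82 genes. The RFX motif GTTGCC, searched on both strands, was in 28 of the 76 windows (36.8%) and in 12.5% of the 32851 windows of all genes, or 13% of the windows of genes in the deposited table. The forkhead core TGTTTA, searched likewise, was in 14 of the 76 windows (18.4%), in 13.4% of all windows and in 9.31% of those of genes in the deposited table. Among windows of cilium genes that fell in males with the replicate block 37.8% held the RFX motif and 11.1% the forkhead core. Among windows of the other cilium genes the shares were 35.5% and 29%. These shares were not tested. Of 11 windows of the genes called without the block, 4 held it. Those 4 are printed 5′ to 3′ along the strand of the gene, as the 250 bases before the start, with the RFX motif or its reverse complement GGCAAC in capitals. Dnaic2, an outer arm intermediate chain, is at chr11:114727169-114727418 on the plus strand, Dnah10, an inner arm heavy chain, at chr5:124724835-124725084 on the plus strand, Drc1, a subunit of the nexin-dynein regulatory complex, at chr5:30281143-30281392 on the plus strand, and Cfap44, an inner arm tether, at chr16:44394549-44394798 on the plus strand.
Dnaic2: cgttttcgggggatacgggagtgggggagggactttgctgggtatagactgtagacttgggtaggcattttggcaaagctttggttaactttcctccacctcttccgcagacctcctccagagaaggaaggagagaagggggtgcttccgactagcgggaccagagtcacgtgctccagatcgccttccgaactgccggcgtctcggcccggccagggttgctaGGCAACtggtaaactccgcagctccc
Dnah10: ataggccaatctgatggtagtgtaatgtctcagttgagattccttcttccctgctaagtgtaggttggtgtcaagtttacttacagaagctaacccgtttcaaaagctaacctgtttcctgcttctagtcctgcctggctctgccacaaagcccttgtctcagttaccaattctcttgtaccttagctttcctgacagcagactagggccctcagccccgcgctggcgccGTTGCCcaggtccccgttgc
Drc1: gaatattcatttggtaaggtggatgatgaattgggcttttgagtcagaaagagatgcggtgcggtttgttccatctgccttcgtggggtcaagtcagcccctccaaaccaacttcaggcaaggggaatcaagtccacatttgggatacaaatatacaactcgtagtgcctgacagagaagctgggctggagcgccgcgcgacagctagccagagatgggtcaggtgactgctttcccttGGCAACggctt
Cfap44: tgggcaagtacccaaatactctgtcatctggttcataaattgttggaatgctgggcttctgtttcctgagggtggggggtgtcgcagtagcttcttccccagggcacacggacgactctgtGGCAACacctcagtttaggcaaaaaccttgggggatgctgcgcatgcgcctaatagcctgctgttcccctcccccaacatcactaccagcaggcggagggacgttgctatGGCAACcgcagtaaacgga
Counted from the start, the RFX motif began at -26 in Dnaic2, at -20 in Dnah10, at -11 in Drc1, and at -129 and -19 in Cfap44. It lay on the strand of the gene in Dnah10 and on the opposite strand in the other 3 genes. A match of 6 letters is a description of the window and no evidence of binding.

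**Figure D1:**
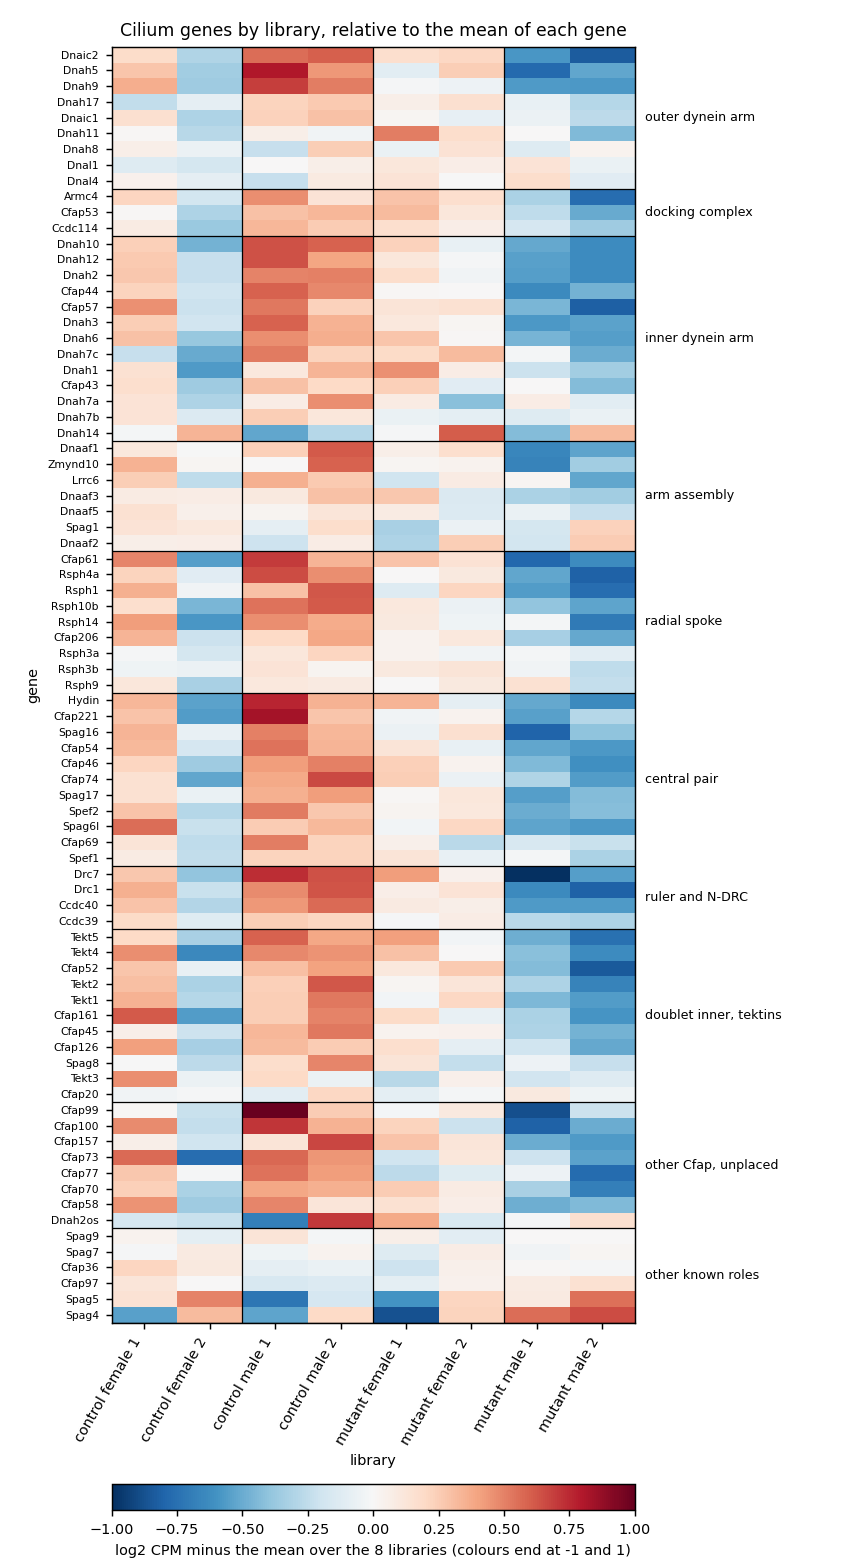
Each row is 1 of the 81 cilium genes tested, grouped by role, and each column 1 of the 8 libraries. The colour is the log2 CPM minus the mean of that gene over the 8 libraries, from blue (lower) to red (higher). Most rows are red in both control males and blue in both mutant males, while control female 2 is bluer than control female 1 and the genes known for other roles, at the foot, do not follow the pattern.

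Among the outer dynein arm genes, 3 of 9 fell in males, with a class median of -0.43 and a range from -1.29 to 0.10. Dnaic2 was at 11.9 and 8.43 CPM (reads scaled to the adjusted library size) for control females, 15.4 and 15.8 for control males, 11.7 and 12.1 for mutant females, and 6.94 and 5.81 for mutant males. Both mutant males were below every other library. Its log2 difference in males was -1.29 ± 0.20 (SE, edgeR quasi-likelihood adjusted p = 0.0312), and in females 0.23 ± 0.19 (adjusted p = 1.0).
Dnah9, a heavy chain of the outer arm, stood at 24.98 and 15.1 CPM in control females and at 31.3 and 27.7 in control males. It stood at 19.3 and 18.7 CPM in mutant females and at 13.03 and 12.9 in mutant males, again the lowest libraries. Dnah9 fell in males by 1.18 ± 0.22 on the log2 scale (edgeR adjusted p = 0.0433). Dnah5, another heavy chain of the outer arm, changed from 38.4 and 29.7 CPM in control males to 12.8 and 15.3 in mutant males, a fall of 1.28 ± 0.23 (edgeR adjusted p = 0.0450), and lay at 26.7, 17.3, 20.4 and 26.1 CPM in control females 1 and 2 and mutant females 1 and 2.

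The remaining outer arm genes did not pass the test in males. Dnah11, a heavy chain of the outer arm, had its highest libraries in mutant females, with 65.4 and 51.7 CPM against 46.1 and 37.8 in control females, and these 2 groups did not overlap. In males it was at 47.6 and 44.8 CPM in controls and 46.0 and 33.6 in mutants, which overlap. Its log2 difference was 0.48 ± 0.18 in females (edgeR adjusted p = 1.0) and -0.21 ± 0.18 in males (edgeR adjusted p = 0.547). Dnal1, a light chain that binds a heavy chain of the outer arm, stayed between 45.4 and 56.5 CPM in all 8 libraries, and the light chain Dnal4 between 20.8 and 27.6. Their log2 differences in males were 0.01 ± 0.11 and 0.10 ± 0.16 (edgeR adjusted p = 0.966 and 0.764).

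The 3 genes of the outer arm docking complex, which holds the arm on the doublet, had log2 differences in males from -0.85 to -0.56, and 0 of the 3 fell in the fit without the block. With the replicate block all 3 fell. Armc4 was at 8.24 and 6.54 CPM among control males and 4.74 and 3.47 among mutant males, without overlap. Its log2 difference was -0.85 ± 0.24 (edgeR adjusted p = 0.128, and 0.00899 with the replicate block). Ccdc114 was at 15.2 and 14.3 CPM among control males and 10.7 and 9.38 among mutant males, also without overlap, with a log2 difference of -0.56 ± 0.18 (edgeR adjusted p = 0.162, and 0.0225 with the block).

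Inner dynein arm genes gave 5 of the 15 falls, and their class median in males was -0.92 over 13 genes. Dnah10, a heavy chain of the inner arm, had the highest CPM of the 15 genes. It was at 42.0 and 25.7 CPM for control females, 55.3 and 53.6 for control males, 41.9 and 33.8 for mutant females, and 24.98 and 23.0 for mutant males. Mutant males were lowest, with control female 2 close above them. The fall in males was -1.18 ± 0.21 on the log2 scale (edgeR adjusted p = 0.0433).
Dnah12, a single-headed heavy chain, was at 38.1 and 32.2 CPM among control males and 16.7 and 15.7 among mutant males, and it fell by 1.12 ± 0.18 on the log2 scale (edgeR adjusted p = 0.0326). In females it lay at 29.3 and 20.8 CPM in controls and within that range, at 26.4 and 24.2, in mutants. Cfap44, which tethers an inner arm to the doublet in ciliates and algae, was at 33.8 and 31.4 CPM among control males and 14.4 and 16.2 among mutant males. Its female libraries, at 26.1 and 19.6 CPM in controls and 22.6 and 22.5 in mutants, lay between the male groups. Cfap44 fell in males by 1.09 ± 0.16 on the log2 scale (edgeR adjusted p = 0.0311).

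Dnah2 and Dnah3 completed the inner arm genes that fell. Dnah2 was at 19.99 and 20.05 CPM among control males and 9.64 and 9.13 among mutant males, with a log2 difference of -1.09 ± 0.18 (edgeR adjusted p = 0.0361). A non-coding gene, Dnah2os, lies inside it on the opposite strand and held 93 reads in all, against 2154 for Dnah2. Dnah3 was at 38.2 and 32.4 CPM among control males and 17.0 and 17.54 among mutant males, with a log2 difference of -1.03 ± 0.16 (edgeR adjusted p = 0.0326). Over all 15 dynein heavy chain genes, of the inner and outer arms together, 14 had a negative difference in males, 12 had both mutant males below both control males (25.5% of all genes tested had), and 6 fell.

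The other inner arm genes did not pass the test in males. Cfap43, a partner of Cfap44 at the inner arm tether, was at 57.6 and 53.8 CPM among control males and 46.9 and 34.6 among mutant males, a log2 difference of -0.45 ± 0.21 (edgeR adjusted p = 0.284, and 0.0133 with the replicate block). Dnah1 had a log2 difference of -0.51 ± 0.24 in males and 0.45 ± 0.24 in females (edgeR adjusted p = 0.292 and 1.0). Dnah7c, a single-headed heavy chain, gave the largest value in females: 3.37 and 2.77 CPM in control females and 4.56 and 4.98 in mutant females, a log2 difference of 0.64 ± 0.25 (edgeR adjusted p = 1.0). Reads of Dnah7c are uncertain, because 46.8% of the 50-base stretches of its transcripts also occur in another gene, mostly Dnah7b. Dnah14 was the inner arm gene above 0 in males, at 0.46 ± 0.46, with at most 1.22 CPM in a library.

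Next come the factors that assemble dynein arms in the cytoplasm. Of 7 tested, 0 fell in males without the block and 2 with it, Dnaaf1 and Zmynd10, and the class median was -0.54. Dnaaf2 and Dnaaf5 were the most abundant per length in the authors' RPKM. Dnaaf2 lay between 12.3 and 18.2 CPM in all 8 libraries with overlapping groups, and its log2 difference in males was 0.11 ± 0.22 (edgeR adjusted p = 0.812). Reads of Dnaaf2 are uncertain as well, with 37.9% of its 50-base stretches shared with another gene. Dnaaf5 was at 21.2 and 22.5 CPM among control males and 19.8 and 17.7 among mutant males, a log2 difference of -0.22 ± 0.14 (edgeR adjusted p = 0.3995).

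Of 9 radial spoke genes, Rsph4a and Rsph1, which belong to the head of the spoke, fell in males, and the class median was -0.78. Rsph4a was at 16.4 and 13.03 CPM for control females, 22.2 and 19.4 for control males, 14.2 and 15.1 for mutant females, and 9.80 and 8.01 for mutant males. The mutant males stood below all other libraries and the control males above them. Rsph4a fell by 1.23 ± 0.17 in males, with the smallest edgeR adjusted p of the cilium genes, 0.0286.
Rsph1 was at 18.9 and 23.8 CPM among control males and 10.4 and 9.04 among mutant males, and it fell by 1.134 ± 0.202 (edgeR adjusted p = 0.0418). Rsph3b, which belongs to the stalk of the spoke, stayed between 7.08 and 9.30 CPM, with a log2 difference of -0.23 ± 0.16 (edgeR adjusted p = 0.477). It shares 54.3% of its 50-base stretches with its close copy Rsph3a, so the counts of the pair cannot be separated with confidence. Rsph9, another head protein, chosen after its values were seen, was at 9.41 and 9.31 CPM among control males and 9.69 and 7.38 among mutant males, with overlapping groups.

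All 11 central pair genes tested were lower in both mutant males than in both control males, as were 25.5% of all genes tested. Their class median in males was -0.96, with 2 genes called without the replicate block and all 11 with it. Spag17 was at 18.8 and 16.1 CPM for control females, 21.7 and 22.6 for control males, 17.0 and 18.3 for mutant females, and 11.5 and 12.5 for mutant males. Mutant males were lowest. The log2 difference was -0.88 ± 0.14 in males (edgeR adjusted p = 0.0322) and 0.02 ± 0.14 in females (edgeR adjusted p = 1.0). Cfap54, a large protein of a central pair projection, was at 27.3 and 23.7 CPM among control males and 13.03 and 12.5 among mutant males, a fall of 1.00 ± 0.18 (edgeR adjusted p = 0.0433). Spef1, a microtubule-binding protein needed for the central pair, was at 25.3 and 25.3 CPM among control males and 21.4 and 17.4 among mutant males, a difference of -0.38 ± 0.16 (edgeR adjusted p = 0.245, and 0.0465 with the replicate block). Hydin, a very large projection protein chosen after its values were seen, was at 36.8 and 27.6 CPM among control males and 15.2 and 13.9 among mutant males, a difference of -1.14 ± 0.28 that did not pass (edgeR adjusted p = 0.0909, and 0.000582 with the block).

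The 4 genes of the molecular ruler and the nexin-dynein regulatory complex had the lowest class median in males, -1.18. Drc1 was at 11.7 and 7.82 CPM for control females, 12.7 and 14.2 for control males, 9.55 and 10.1 for mutant females, and 5.81 and 5.18 for mutant males. Mutant males were below the other 6 libraries. Drc1 fell in males by 1.29 ± 0.22 on the log2 scale (edgeR adjusted p = 0.0351).
Drc7, another subunit of the complex, had the largest difference of all the cilium genes in males and was just outside the threshold. It was at 7.68 and 7.14 CPM among control males and 1.99 and 3.08 among mutant males, a log2 difference of -1.54 ± 0.30 (edgeR adjusted p = 0.0538, and 0.00285 with the replicate block). Ccdc40, which with Ccdc39 sets the repeat along the doublet, was at 27.3 and 29.8 CPM among control males and 13.6 and 13.5 among mutant males, and fell by 1.07 ± 0.18 (edgeR adjusted p = 0.0370). Its partner Ccdc39 was at 39.7 and 38.8 CPM among control males and 27.7 and 27.1 among mutant males, without overlap. The difference of Ccdc39 was -0.52 ± 0.13 (edgeR adjusted p = 0.0914, and 0.00960 with the block), smaller than that of Ccdc40, but the gap between the partners was not tested.

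Of 11 tektins and other proteins on the inside of the doublets, 1 fell in males, 7 with the replicate block, and the class median was -0.84. The gene that fell was Cfap45, at 18.1 and 20.8 CPM among control males and 11.6 and 10.4 among mutant males, with a log2 difference of -0.83 ± 0.15 (edgeR adjusted p = 0.0466). Tekt4, a filament protein along the doublet, was at 9.96 and 9.75 CPM among control males and 5.28 and 4.54 among mutant males, a difference of -1.01 ± 0.33 (edgeR adjusted p = 0.159, and 0.0130 with the block). Cfap20, a protein of the inner junction of the doublet, lay between 64.9 and 80.8 CPM with overlapping groups, and its difference in males was -0.03 ± 0.12 (edgeR adjusted p = 0.919).

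Another 8 genes could not be placed in a class, 7 of them with the name Cfap. Their median in males was -0.93, 0 fell without the block and 5 with it. Cfap157 was at 3.79 and 5.54 CPM among control males and 2.42 and 2.30 among mutant males, a difference of -0.98 ± 0.26 (edgeR adjusted p = 0.106, and 0.0218 with the block). Cfap77 was at 5.01 and 4.60 CPM among control males and 3.28 and 1.95 among mutant males, and at 4.12 and 3.38 in control females and 2.82 and 3.13 in mutant females. It was the single cilium gene whose 4 mutant libraries all lay below its 4 control libraries. Its log2 difference over both sexes was -0.61 ± 0.21 (edgeR adjusted p = 0.781). In males the difference of Cfap77 was -0.88 ± 0.28 (edgeR adjusted p = 0.153, and 0.0297 with the block).

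The name rule also took 6 genes that were classed as known for other roles, and 0 of these fell in males. The median of the 6 in males was 0.17, and 4 of them had both mutant males above both control males (26.9% of all genes tested had). No role outside the axoneme is given here for Cfap36 and Cfap97, and their placing in this class is uncertain. Spag5, a protein of the mitotic spindle, was at 88.6 and 113 CPM for control females, 48.5 and 71.6 for control males, 53.1 and 93.2 for mutant females, and 85.4 and 117 for mutant males. In each group the library numbered 2 was the higher one. Its log2 difference in males was 0.76 ± 0.29 (edgeR adjusted p = 0.2102), and with the replicate block it rose (adjusted p = 0.000710). It moved with a list of 12 cell cycle genes, whose median log2 difference was 0.63 in males and -0.34 in females. All 12 of these genes rose in males with the block (7.3% of all genes rose), and 0 of them without it (0.259% of all genes rose). Spag4, a protein of the nuclear envelope, was at 1.06 and 1.83 CPM among control males and 2.37 and 2.54 among mutant males (0.76 ± 0.45, edgeR adjusted p = 0.388), and Cfap97 differed by 0.26 ± 0.10 (edgeR adjusted p = 0.224). Spag7 stayed between 55.1 and 64.3 CPM in all libraries, and Cfap36 between 44.7 and 60.1. Without these 6 genes the median of the other 75 in males was -0.85, and the 15 falls were all among the 75.

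**Figure D2:**
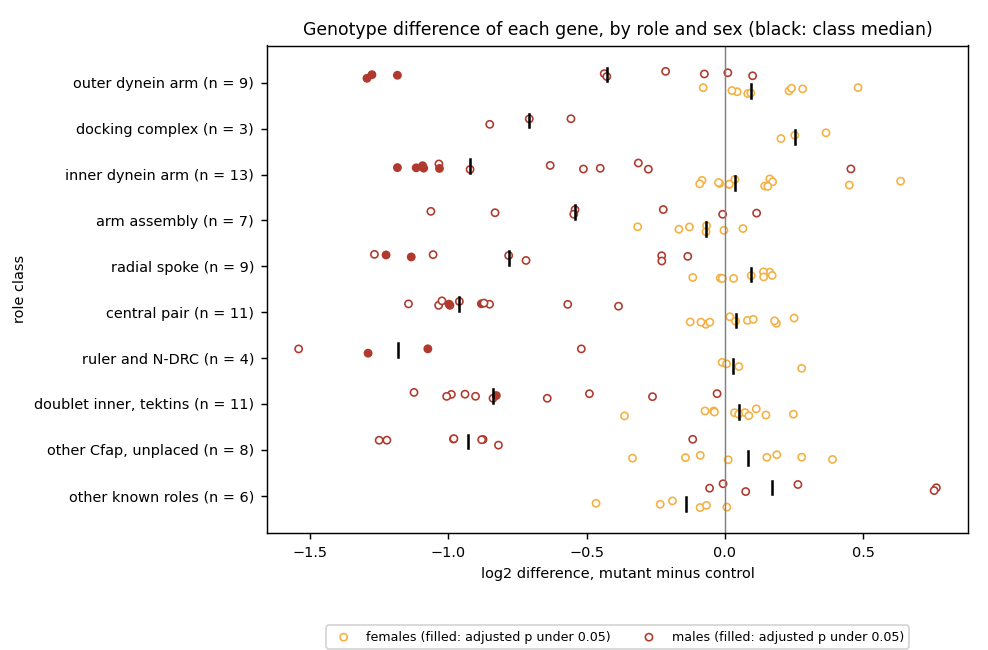
Each point is the log2 difference between mutants and controls of 1 gene, by role class, with males in red and females in orange, and filled points passing an adjusted p of 0.05. The black bars are class medians, from -1.18 for the ruler and nexin-dynein regulatory complex to 0.17 for the genes known for other roles in males, while the female points sit around 0.

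The male differences formed a broad group rather than a few extreme genes. In males 73 of the 81 genes had a negative difference, as had 8844 of all 18164 genes tested. Of the 81, 54 (66.7%) were below -0.5, where 12.2% of all genes tested were, and 42 lay between -1.3 and -0.8. The quartiles were -1.03 and -0.28. A group of 18 genes lay within 0.3 of 0, among them Cfap20, Dnal1, Dnal4, Dnaaf2, Dnaaf5, Dnah11, Rsph3b, Spag7, Cfap36 and Cfap97. In 65 genes (80.2%, against 25.5% of all genes tested) both mutant males were below both control males, and in 4 (4.94%, against 26.9%) both were above. Just outside the threshold, with an adjusted p between 0.05 and 0.1, were 15 further genes, all lower in mutant males: Drc7, Cfap46, Cfap52, Rsph10b, Dnaaf1, Dnah6, Tekt5, Spag16, Spef2, Hydin, Cfap74, Ccdc39, Tekt1, Cfap70 and Cfap57. DESeq2 called 34 cilium genes lower in males (42%, against 3.61% of all genes), and limma-voom called 11 of the 15. For limma-voom in males neither the total of cilium genes called nor the share of all genes is given here. At an unadjusted p under 0.05 edgeR gave 53 of the 81 genes in males and 3502 of the 18164 genes in all.

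**Figure D3:**
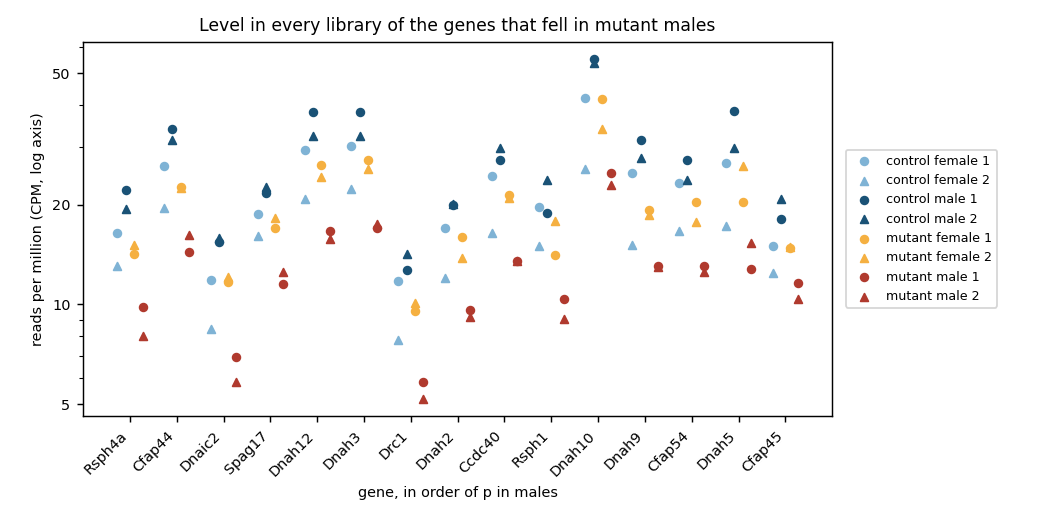
The CPM of the 15 genes that fell in males is shown on a log axis, 1 symbol per library, with genes in order of their p. The 2 mutant male libraries lie below both control male libraries for each of the 15 genes, and the female libraries of both genotypes lie mostly between them.

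In females the values of mutants and controls mostly overlapped. No cilium gene passed edgeR's test in females, with or without the replicate block (0% of all genes passed without it and 0.0771% with it). DESeq2 and limma-voom also called 0. At an unadjusted p under 0.05 edgeR gave 2 cilium genes, Dnah11 and Dnah7c, both higher in mutants, and 290 of all genes. The female differences had quartiles of -0.07 and 0.16, and the 15 genes that fell in males ran from -0.12 to 0.23 in females. Both mutant females were below both control females in 3 genes (3.7%, against 10.6% of all genes) and above them in 8 (9.88%, against 11.3%). The 2 control females were themselves apart, since control female 2 was below control female 1 in 74 of the 81 genes. The share of all genes with that order was not counted. The median female difference was 0.28 without control female 1 and -0.16 without control female 2.

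Whether the genotype difference was itself different between the sexes was tested as an interaction. The difference in males minus that in females had a median of -0.89 over the 81 genes. It ran from -1.52 to -0.90 in the 15 genes that fell in males. These 15 were picked for low values in males, so its negative sign there follows largely from that choice. No cilium gene and 0% of all genes passed the edgeR test of this interaction. At an unadjusted p under 0.05 it gave 46 cilium genes and 2266 of all genes. With the replicate block 36 cilium genes had a lower value in males (44.4%, against 5.41% of all genes) and 1, Spag5, a higher one (3.92% of all genes were higher). DESeq2 gave 13 lower (16%, against 0.875% of all genes), and limma-voom gave 0. Dnaic2 had the smallest interaction p, with a value of -1.52 ± 0.27 (edgeR adjusted p = 0.317, and 0.00228 with the block).

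With both sexes in a common genotype term, no cilium gene passed the edgeR test. The share of all genes passing was 0%, and 0.0165% with the replicate block, which called 0 cilium genes too. DESeq2 and limma-voom also called 0, and 15 cilium genes and 1061 of all genes had an unadjusted edgeR p under 0.05. The median difference was -0.36, and 71 of the 81 genes were negative, as were 8645 of all 18164 genes tested. All 4 mutant libraries were below all 4 controls in 1 gene (1.23%, against 1.74% of all genes) and above them in 0 genes (1.65% of all genes). The authors' deposited table of mutant against control called 13 cilium genes at a false discovery rate under 0.05, all lower, of 775 genes in all (4.05%). In the authors' deposited table the smallest false discovery rates of the 13 were 0.00287 for Dnah9 with a log2 difference of -0.59, 0.00329 for Cfap54 with -0.50 and 0.00454 for Dnah12 with -0.51. No source used here states the terms of the model behind the authors' deposited table.

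By group mean, control males were highest in 65 of the 81 genes (control males were highest in 35.3% of all genes tested) and mutant males lowest in 64 (29.0% of all genes). The lowest single library was mutant male 2 in 40 genes, mutant male 1 in 13 and control female 2 in 12. The highest was control male 1 in 36 and control male 2 in 27. For single libraries the shares over all genes were not counted. Relative to the mean of each gene over the libraries, the median cilium gene stood at 0.20 and -0.23 on the log2 scale in control females 1 and 2 and at 0.30 and 0.34 in control males. It stood at 0.08 and 0.05 in mutant females and at -0.32 and -0.47 in mutant males. The 2 libraries of a group were thus closer to each other than to the other genotype in males, while the control females spanned the mutant females.

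Other genes of multiciliated cells were compared with the cilium genes. Foxj1, the transcription factor that switches on the motile cilium programme, was at 57.5 and 40.8 CPM for control females, 63.1 and 63.5 for control males, 41.01 and 44.4 for mutant females, and 26.8 and 22.7 for mutant males. The mutant males were the lowest libraries. Foxj1 fell in males by 1.35 ± 0.17 on the log2 scale (edgeR adjusted p = 0.0270) and differed by -0.20 ± 0.16 in females (edgeR adjusted p = 1.0). Of the cilium genes, Drc7 alone had a larger negative value in males than Foxj1. The list of 11 tested regulators of multiciliated cells had a median of -1.005 in males, with 1 fall, Foxj1, and 8 falls with the replicate block. In females this list had a median of -0.20, with 9 of the 11 negative and 0 called. Both mutant females were below both control females in 5 of the 11 (10.6% of all genes). Over both sexes the median of the regulators was -0.69, and in 3 all mutant libraries were below all controls (1.74% of all genes). A list of 32 other genes of motile cilia and ciliated cells had a median of -0.78 in males and 0.05 in females, with 2 falls in males without the block and 21 with it.

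Lists of genes for cilia in general and for other dyneins had medians near 0. The 27 genes of intraflagellar transport, which carries cargo in motile and primary cilia alike, had a median of 0.08 in males, and 0 fell or rose without the block and 1 each way with it. The 8 BBSome genes, which act mainly in primary cilia, had a median of 0.07, and 11 genes of cytoplasmic dynein and its partner dynactin a median of -0.03, with 0 calls in each list in either fit. Of 10 testis genes looked for, since many axonemal genes are also used in sperm tails, 2 were in the table, and their summed level was 0.886 to 1.63 CPM in every library.

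**Figure D4:**
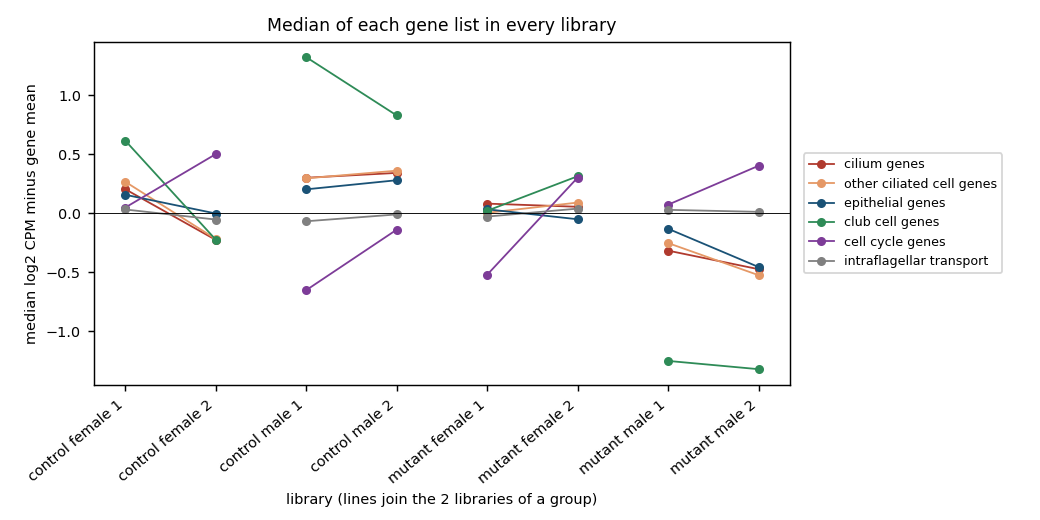
For each gene list, the median over its genes of the log2 CPM minus the gene mean is plotted in the 8 libraries, with a line joining the 2 libraries of a group. Cilium genes and the other ciliated cell genes run together, from about 0.3 in control males to below -0.3 for the cilium genes in mutant males. Club cell genes span a wider range, and intraflagellar transport stays near 0.

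Markers of several epithelial cell types were lower in mutant males along with the cilium genes, and markers of other cell types were not uniformly so. The 11 club cell genes tested, markers of the secretory cells of the airway, had a median log2 difference of -2.66 in males with 7 falls, 9 with the replicate block, and -0.18 in females. Their summed level was 1471 and 1866 CPM among control males and 403 and 450 among mutant males, and 827 to 1435 in control females. The 16 genes shared by all epithelium had a median of -0.52 in males with 3 falls, or 10 falls and 1 rise with the block, and their summed level was 2735 to 2874 CPM in control males and 1808 to 2153 in mutant males. Of these 16 genes 14 had a negative difference in males. Epcam, which marks epithelial cells and belongs to the same list, went the other way, with 144 and 196 CPM among control males and 255 and 240 among mutant males (0.54 ± 0.14, edgeR adjusted p = 0.108, and 0.00657 with the block). The medians in males were -1.48 for 9 type 1 alveolar genes, with 4 falls, -0.96 for 10 type 2 alveolar genes, with 1 fall, 0.04 for 10 mesenchymal genes and -0.15 for 9 endothelial genes, both with 0 calls. With the block 8 of the type 1 genes, 9 of the type 2 genes, 2 endothelial genes and 1 mesenchymal gene fell, and 2 mesenchymal genes rose. Other lists were mixed in males. Of 5 basal cell genes 1 fell and 1 rose, and of 5 mesothelial genes 2 fell. Of 4 neuroendocrine genes and 8 blood and immune genes 0 were called. The medians of these lists were -0.18, 0.25, -0.85 and -0.02. With the block 2 basal, 2 mesothelial, 2 neuroendocrine and 1 blood or immune gene fell, and 1 basal and 1 neuroendocrine gene rose. Of 5 cartilage genes tested, 2 rose in males, 4 with the block, and the summed level of the list was 29.6 to 53.2 CPM in control males and 94.8 to 100.1 in mutant males. In these whole-lung libraries fewer ciliated cells and less cilium RNA per cell cannot be told apart, and the part of the other cell types in the cilium result was not tested.

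The levels of the cilium genes relative to each other were compared per length of merged exons, as CPM per kilobase. The median was 2.10 and the range ran from 0.0489 for Dnah14 to 40.7 for Spag7. Of the 10 highest levels, 5 belonged to the genes known for other roles, and 1, Rsph1 with 11.7 CPM per kilobase, belonged to a gene that fell. Among the genes that fell, the levels went from 0.983 for Dnah2 to that of Rsph1, with Rsph4a at 4.05 and Drc1 at 3.59. Spag7, Spag9, Cfap36 and Cfap20, at 40.7, 27.9, 18.9 and 15.7 CPM per kilobase, were the 4 highest, and their differences in males lay between -0.06 and 0.07. The authors' RPKM had a median of 1.24. The deposited gene lengths behind it had a median ratio to merged exons of 1.81 in the cilium genes, and the ratio ran from 0.521 to 4.66, so the scales also rank the genes differently. The total reads per gene ran from 51 to 46168 with a median of 1662 over the 8 libraries, and counts of the rarest genes are correspondingly less exact.

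**Figure D5:**
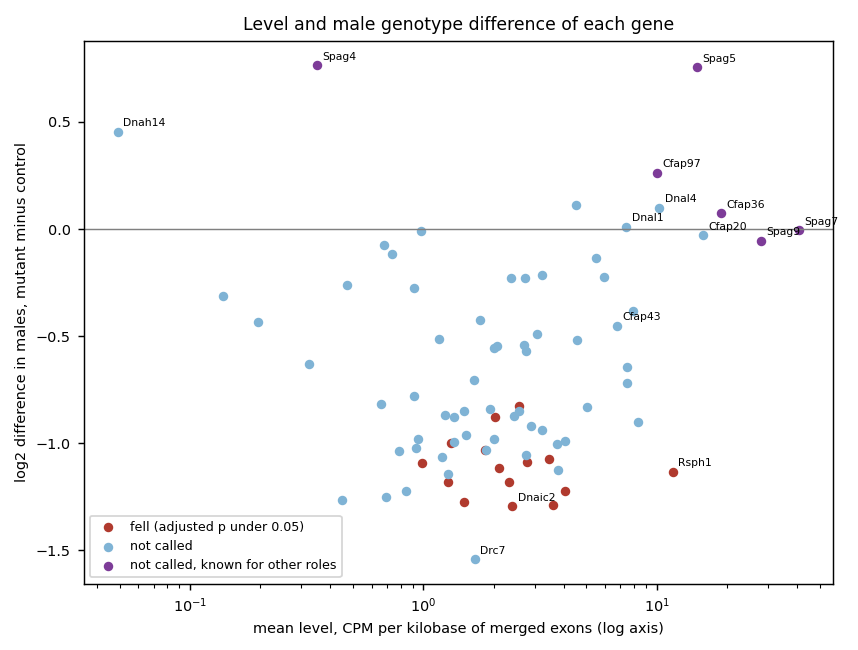
Each point is 1 of the 81 genes, with its mean level over the 8 libraries in CPM per kilobase of merged exons on a log axis and its log2 difference between mutant and control males. The genes that fell (red) lie between 0.983 and 11.7 CPM per kilobase, and the genes known for other roles (purple) lie at or above 0 except Spag9 at -0.06 and Spag7 at -0.01.

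The genes lie on 18 chromosomes, with 13 on chromosome 11. A gene on the opposite strand overlaps 47 of the 82, and no source used here states whether counting used the strand. Of the 4 genes with printed windows, Dnaic2 (ENSMUSG00000034706) spans chr11:114727408-114757889 and Drc1 (ENSMUSG00000073102) chr5:30281388-30366695, both on the plus strand of GRCm38 with no overlapping gene on the other strand. Dnah10 (ENSMUSG00000038011) spans chr5:124725085-124834308, with the predicted gene Gm43777 on the opposite strand, and Cfap44 (ENSMUSG00000071550) spans chr16:44394796-44482428, both on the plus strand.

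Total reads in genes ran from 17561012 to 20243205 per library. Xist was at 1419 to 1819 CPM in the libraries labelled female and 2.60 to 3.42 in those labelled male, and Y-linked Ddx3y at 93.7 to 115 CPM in males and at most 0.325 in females, which matched the labels. Tgfbr1, the gene of the receptor, was at 79.7 to 98.6 CPM in controls and 80.5 to 95.9 in mutants, and its difference over both sexes was 0.01 ± 0.09 (edgeR adjusted p = 0.996). No source used here states whether reads of the active form were counted under Tgfbr1.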

How the data were processed

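For 19150 genes the authors deposited raw counts of each library in a single table, per the file headers. That deposited table also gives RPKM values, gene lengths, and the authors' comparison of mutant with control as log2 differences and log2 CPM, a likelihood ratio score, p-values and false discovery rates, per the file headers. Tools listed in the submitters' processing notes, without their roles, are STAR 2.5.2b, HTSeq 0.6.1p2, edgeR 3.16.5, Trimmomatic 0.35 and cutadapt 1.13. No source used here states the genome build, the annotation or the strand setting. All sample columns were used.

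The whole count table was tested in R 4.3.3 with edgeR 4.0.16, using TMM normalization (factors 0.975 to 1.02), filterByExpr with a minimum count of 10 (18164 genes kept), quasi-likelihood F tests, two-sided, and Benjamini-Hochberg adjustment at 0.05. The differences in males and in females and their interaction came from 4 group means over all 8 libraries, and the difference over both sexes from a model with sex and genotype as additive terms. CPM used TMM-adjusted library sizes, and log2 CPM a prior count of 2. DESeq2 1.42.0, limma-voom (limma 3.58.1), RLE normalization, no further filter, a replicate block, fits within 1 sex and fits without 1 library were alternatives. The steps were tested on simulated data. Libraries of 1 group differed by 15.3 to 21.9 times the sampling variance (chi-square per gene) with a Spearman correlation of 0.988 to 0.991 across genes, so no library was treated as a copy of another, which does not show that they came from separate embryos.

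The labels number the libraries 1 and 2 in each group and do not say what the number marks. The deviations of same-numbered libraries from their group means correlated across 12793 genes at 0.180 to 0.626 in all 6 pairs of groups. The lowest, 0.180, was between control and mutant males. These 6 values come from only 4 groups, so they cannot establish that same-numbered libraries belong together. The replicate block is therefore given as an alternative. Blocked counts stand beside the totals of cilium genes called in males and in the interaction. Blocked values of single genes are given for some genes only, mostly in males.

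Role classes and marker lists came from textbook knowledge. The cilium genes and the lists were chosen with earlier results of these data known. Genes named with values were, per role class, the 2 with the highest mean RPKM, in males the 12 smallest p among called genes, the 5 with the smallest p in each other comparison, and the 3 largest falls and rises in males among genes of at least 1 CPM, with Foxj1 and Epcam. Others (Dnah5, Cfap45, Hydin, Rsph9, Dnah14, Dnah2os, Rsph3a, Spag9, Dnaaf1, Zmynd10, Tgfbr1, Xist, Ddx3y) were chosen after their values were seen, or checked labels. Gene positions and merged exons came from GENCODE M21 on GRCm38, matched by Ensembl ID, and promoters from RefSeq on GRCm38.p6. Depth was 17561012 to 20243205 reads per library, and precision for single genes follows their reads.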

Additional observations from a re-analysis of the deposited data

Results flagged for a closer look

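Among 74 sets of 4 libraries of 1 genotype, both sexes together, 4 genes had a lowest control library far from the other 3 controls. Chance flags about 1 in 20 such sets. Ccdc39 was at 30.7 CPM in control female 2, against 38.2 to 39.7 CPM in the other controls. Cfap73 was at 0.444 CPM in control female 2, against 1.16 to 1.28 CPM in the others, and Tekt4 at 4.49 CPM, against 9.75 to 9.96 CPM. Dnaaf2 was at 13.1 CPM in control male 1, against 15.8 to 16.01 CPM in the others. No cause was tested for any of these values.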

How the results depend on the processing

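Of the falls in males, RLE normalization, no further filter, DESeq2 and the replicate block called all 15 again. The number of cilium genes called in males was 34 with DESeq2, 25 with the 4 male libraries alone in the fit and 49 with the replicate block, against 15, and it ran from 0 to 21 when 1 library was left out. The fits without 1 of the 4 male libraries called the fewest cilium genes in males, as given above. They hold fewer samples, and whether that was the cause was not tested. For the fit of the 4 male libraries alone and the fits without 1 library, no share of all genes called is given here. Whether the changes in number under these fits were particular to cilium genes was not tested. For the interaction DESeq2 called 13 and the replicate block 37, against 0, and its median ran from -1.19 to -0.64 when 1 library was left out. In females the median ran from -0.16 to 0.28, both ends without 1 control female, and over both sexes from -0.55 to -0.23. The authors' deposited comparison called 13 over both sexes, against 0. The median level was 2.10 CPM per kilobase of merged exons, chosen after seeing the data, against a deposited RPKM of 1.24. The cause of these changes was not tested. Of the values of the 37 named genes under the alternatives, none reversed a called direction. A value called in neither fit could not count as reversed, and some such values changed sign, as Ccdc40 in females (from -0.21 to 0.37). In males 55 lost and 16 gained a call, in the interaction 33 and over both sexes 11 gained one, and in females 0 did. Genes with under 1 CPM are limited by their few reads.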
